A study of Mus musculus with 6 samples.

Results

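The nuclear genes for subunits of the oxidative phosphorylation complexes were followed in lungs of mice with and without a functional Ism1 gene. Members were the protein-coding rows of the count table whose symbols begin with Nduf and a subunit letter and number, Uqcr, Cox4 to Cox8 or Atp5, together with Sdha, Sdhb, Sdhc and Sdhd. The isoforms Cox7a1 and Cox8b, which are typical of muscle and brown fat, were left out by the rule and are given apart. This gave 83 rows of 54532 genes in all, with 82 symbols because Atp5o occupies 2 rows. By symbol, 37 rows belonged to complex I, 4 to complex II, 8 to complex III, 16 to complex IV and 18 to complex V.

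Whole lungs of 3 WT and 3 ISM1-/- mice were sampled at 2 months of age, untreated and perfused to remove blood, and each mouse gave 1 poly-A RNA library. All mice were on the C57BL/6J background. WT mice were bought from a supplier and ISM1-/- mice were bred in-house. An effect of genotype and an effect of where the mice came from cannot be told apart. ISM1, or isthmin-1, is a secreted protein made in the lung and in fat, and the study compared baseline transcriptomes to learn what its loss alters.

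Oxidative phosphorylation takes place in the inner mitochondrial membrane. Complexes I and II pass electrons from NADH and succinate to coenzyme Q, complex III passes them on to cytochrome c and complex IV to oxygen, while complexes I, III and IV pump protons whose return through complex V, the ATP synthase, drives the making of ATP. A few core subunits are encoded by the mitochondrial genome, and all others, including every subunit of complex II, are encoded in the nucleus and imported. In lung, alveolar type 2 cells and ciliated cells are known for a high content of mitochondria, and some subunits have isoforms typical of one tissue.

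The targeted gene was examined first. Read counts of Ism1 reached 3098, 3215 and 2975 in WT. The libraries labelled ISM1-/- held 2784, 2508 and 2953 of them (edgeR log2 fold change -0.19, standard error 0.0709, adjusted p = 0.217). Transcript of the gene was still present, so only the labels say which libraries lack the functional gene. Total counts lay between 37606133 and 42345042 per library. Defining markers of lung were abundant in every library, with a summed level of 8 alveolar type 2 markers of 23730 to 24130 CPM (counts scaled to the library total by TMM) in WT and 22540 to 23680 CPM in the libraries labelled ISM1-/-. Some lists for cell types differed between the groups and others overlapped. Markers that passed the test (edgeR adjusted p under 0.1) are read beside the 4.72% of all genes that did. Of the 8 alveolar type 2 markers 6 were below WT and 0 passed, and the sums of the groups did not overlap. The 16 cardiomyocyte markers were all below WT (2 passed the test), and WT replicate 1 stood apart with a summed level of 2018 CPM beside 683 and 805 CPM in the other WT libraries and 366 to 728 CPM in the libraries labelled ISM1-/-. White adipocyte markers summed to 252 to 296 CPM against 105 to 178 CPM (7 of 9 passed, all lower), and ciliated cell markers to 767 to 867 CPM against 666 to 685 CPM (5 of 8 passed, all lower). Of 5 neutrophil markers tested, 4 passed and were higher. Of the tested alveolar type 1, endothelial, pericyte and smooth muscle, and plasma cell markers, 1 (Rtkn2), 0, 0 and 1 (Jchain) passed, both higher. Erythroid markers summed to 135 to 445 CPM in WT and 148 to 624 CPM in the others. No tested marker of these lists was at 0 in any library. The part that these cell types play in the values of the subunit genes was not tested, and in bulk tissue fewer cells of a type and less RNA per cell cannot be told apart.

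The subunit genes were slightly lower as a group, and none passed the test singly. Of the 83 rows, 80 reached the expression filter (0.5 CPM in at least 1 library). The second row of Atp5o and Cox8c had no counts and Cox7b2 had at most 4 counts in a library, so these 3 rows were not tested. The edgeR quasi-likelihood test called 0 of the 80 members at an adjusted p under 0.1, beside 4.72% of all 18689 genes tested (3.34% lower and 1.38% higher, and 0.567% when at least a 2-fold change was asked for). With DESeq2 as the test, 1 member was called lower, Atp5g1, beside 4.75% of all genes lower and 2.7% higher. At an unadjusted p under 0.05, edgeR placed 13 members lower and 0 higher, against 9.3% and 6.48% of all genes. The count of 13 depended on single libraries: it was 5 without WT replicate 3, 7 without the second library labelled ISM1-/-, 9 without WT replicate 1 or 2 and 12 to 14 without either of the others. The lowest adjusted p among the members was 0.107 in edgeR, that of Cox6a2, a heart and skeletal muscle isoform.

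Most members nevertheless lay on one side of WT. The log2 fold change was below 0 in 70 of the 80, or 87.5%, beside 48.8% of all genes tested. Its median was -0.08 over the members and 0.004 over all genes, so that the median member in the libraries labelled ISM1-/- stood at 94.5% of its WT mean. With a correction for gene length the median of the members was -0.05, with 65 of 80 below 0. Members ran from -0.82 to 0.08, and without Cox6a2 the median was again -0.08. In 26 members every library labelled ISM1-/- lay below every WT library, and in 0 members did the groups separate the other way, whereas 12.3% of all genes separated lower and 9.33% higher. The genes were measured in the same 6 libraries and do not count as independent observations.

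**Figure D1:**
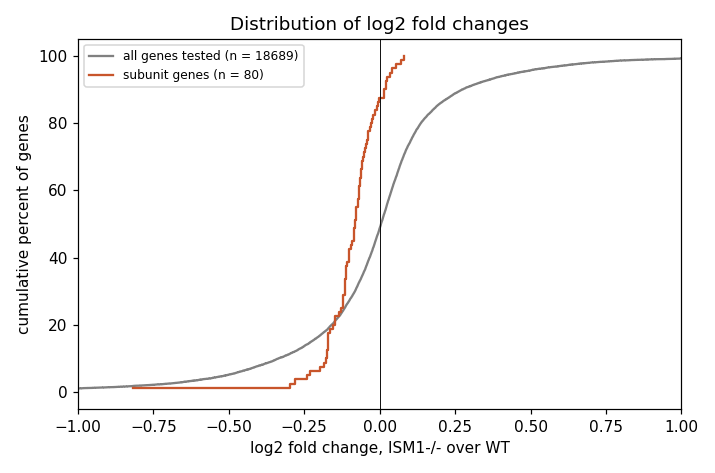
Cumulative percent of genes (vertical axis) at or below each log2 fold change of ISM1-/- over WT (horizontal axis), for the 80 subunit genes tested (orange) and all 18689 genes tested (grey); the axis is cut at -1 and 1. The orange curve reaches 87.5% at 0, where the grey curve stands at 48.8%.

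The differences were about as large as the error of a single gene. The standard error of the log2 fold change had a median of 0.0697 over the members, and the within-genotype SD of log2 CPM had a median of 0.0771. In 43 of the 80 members the absolute difference between the groups exceeded the gene's own within-genotype SD. The 95% interval stayed within 0.5 log2 units of 0 in 78 of the 80 members and within 0.25 in 44 of them. It lay wholly below 0 in 13 members and wholly above 0 in 0. The mean in the libraries labelled ISM1-/- was within 15% of the WT mean in 76 of 80 members.

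**Figure D2:**
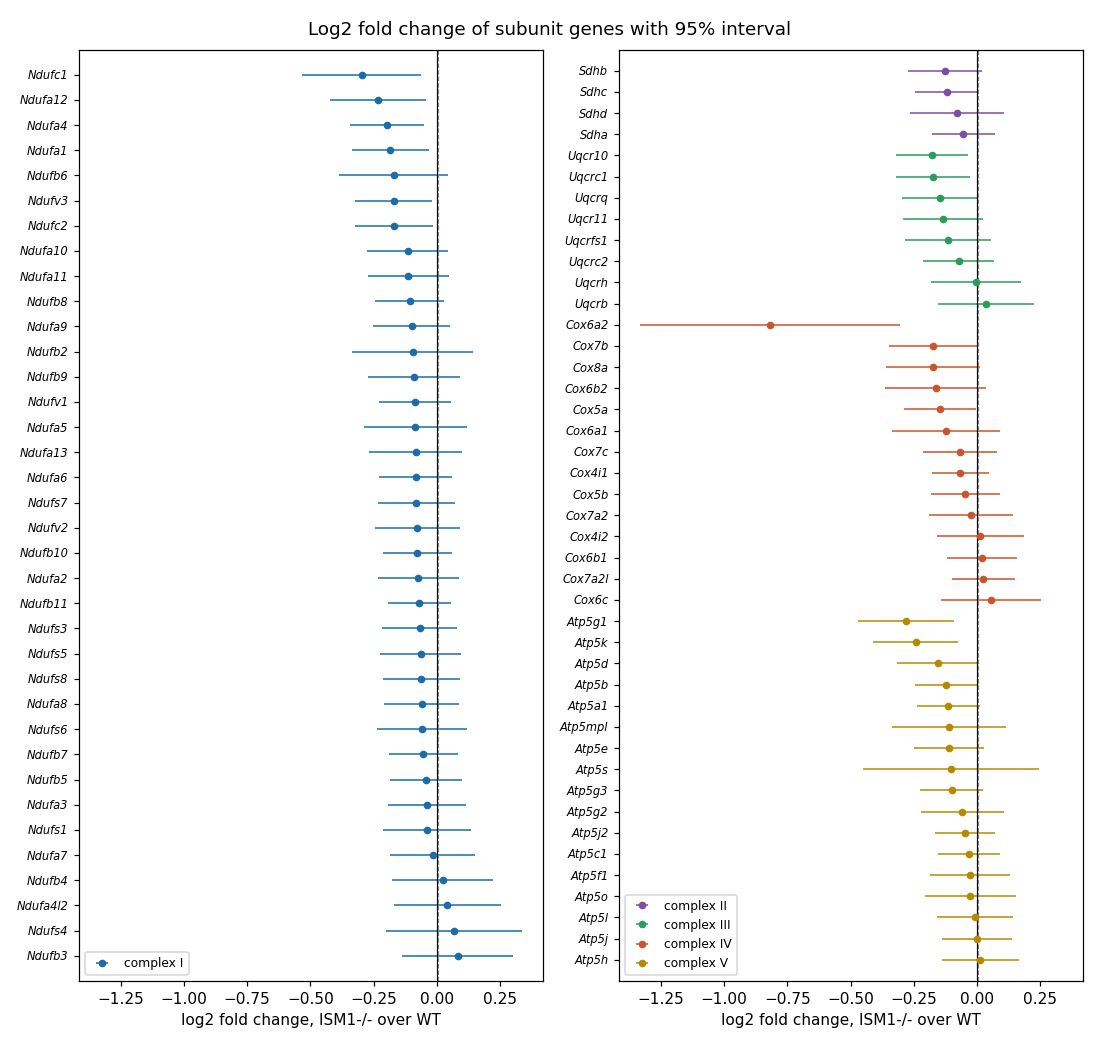
Log2 fold change (horizontal axis, ISM1-/- over WT) of the subunit genes (rows), with the 95% interval from the edgeR fit; colours mark the complexes, the solid line is 0 and the dashed line the median of all genes tested. All but 10 points lie left of 0, and Cox6a2 lies farthest left at -0.82.

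Summed over the members, the level was 5479, 5287 and 5472 CPM in WT and 5106, 5102 and 5119 CPM in the libraries labelled ISM1-/-. The groups did not overlap, and the second mean was 94.4% of the first. Of all counts as deposited, the members took 0.549%, 0.529% and 0.549% in WT and 0.513%, 0.511% and 0.504% in the other group. When each gene was set against its own mean over the 6 libraries and then averaged, the members stood at 0.054, 0.014 and 0.073 on the log2 scale in WT and at -0.054, -0.047 and -0.041 in the libraries labelled ISM1-/-. Protein-coding genes averaging 5 CPM or more stood between 0.006 and 0.012 in WT and between -0.011 and -0.005 in the other group, the same order at a smaller size. Leaving out WT replicate 1 gave a median log2 fold change of -0.08 with 69 of 80 members below 0.

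**Figure D3:**
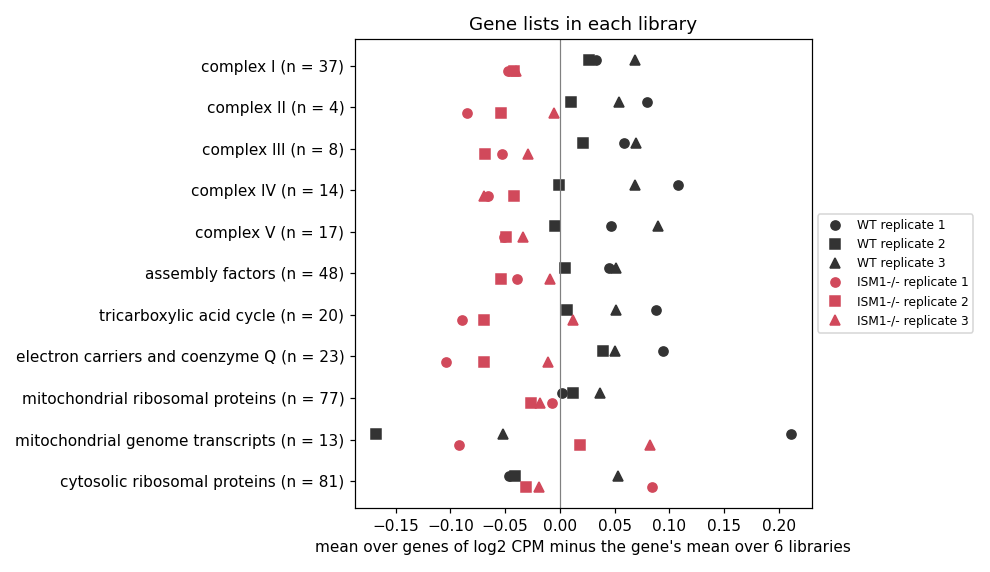
Mean over genes of log2 CPM after subtraction of each gene's mean over the 6 libraries (horizontal axis) for the subunit genes by complex and for related gene lists (rows, n genes tested); black symbols are WT libraries and red symbols libraries labelled ISM1-/-, with 1 shape per replicate number. The 2 colours separate in each of the 5 complexes. They also separate in the assembly factors, electron carriers and coenzyme Q, and mitochondrial ribosomal proteins. They overlap in the tricarboxylic acid cycle, mitochondrial genome transcripts and cytosolic ribosomal proteins.

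The members lie on 19 chromosomes (3 members on X), and their promoters were searched for letters they share. RefSeq promoters (GRCm38.p6, from 250 bases before to 50 bases after the start of the transcript) matched 66 of the 82 symbols. The letters GCGCATG, the core recognised by the nuclear respiratory factor NRF1, occurred on either strand in 13 of these 66 (19.7%), compared with 4.4% of 27025 genes with a promoter and 7.1% of 11710 such genes that are protein-coding and expressed in these lungs. CCGGAAG, a core of ETS factors such as GABPA, occurred in 24.2% of the members and 17.7% of the expressed genes. AAGATGG, a core of YY1, occurred in 16.7% and 7.7%, and GGGCGG, the core of Sp1 sites, in 42.4% and 64.9%. These are matches of letters and not measured binding. The 13 members that hold the NRF1 letters were all below 0, with a median log2 fold change of -0.11, and 0 of them were called. Of all members tested 87.5% were below 0, with a median of -0.08. The 16 members with the ETS letters had 14 below 0 and a median of -0.07. Summed, the members with the NRF1 letters stood at 706 to 726 CPM in WT and at 686, 684 and 623 CPM in the libraries labelled ISM1-/-. A difference between these lists was not tested. Windows of 5 of the members with the NRF1 letters, from complexes I, II, IV and V, show the match in capitals within its neighbouring bases. Each is read 5′ to 3′ on the gene's strand and lies upstream of the RefSeq start. In the windows of Ndufa11, Cox6a1, Atp5g2 and Atp5k the match and its reverse complement overlap, so that 10 bases are capital, and in the window of Sdhb 7 are.
Ndufa11, chr17:56717682-56717731, plus strand, match from 60 bases upstream: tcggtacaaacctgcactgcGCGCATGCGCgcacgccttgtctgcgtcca
Sdhb, chr4:140961198-140961244, plus strand, match from 53 bases upstream: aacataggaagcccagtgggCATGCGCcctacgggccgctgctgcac
Cox6a1, chr5:115349091-115349140, minus strand, match from 162 bases upstream: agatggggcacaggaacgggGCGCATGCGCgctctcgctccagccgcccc
Atp5g2, chr15:102671060-102671109, minus strand, match from 42 bases upstream: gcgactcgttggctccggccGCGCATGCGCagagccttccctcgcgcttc
Atp5k, chr5:108434420-108434469, minus strand, match from 50 bases upstream: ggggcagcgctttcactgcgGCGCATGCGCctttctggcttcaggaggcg

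Complex I, which oxidises NADH, had 37 members tested, of which 33 lay below 0 with a median log2 fold change of -0.08. In 9 of them the groups did not overlap, each time with the libraries labelled ISM1-/- lower, beside 12.3% of all genes, the share to set beside the same count in each complex, and 0 were called. Core subunits of the arm that projects into the matrix had means slightly below WT. Ndufv1, which binds NADH and the flavin cofactor, had 71.8, 66.5 and 65.9 CPM in WT and 67.0, 64.3 and 61.0 CPM in the libraries labelled ISM1-/-, so that the groups overlapped (log2 fold change -0.09, standard error 0.0643). The iron-sulfur subunits Ndufs1, Ndufs7, Ndufs8 and Ndufv2 had log2 fold changes of -0.04, -0.08, -0.06 and -0.08, with overlapping groups in each.

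The accessory subunits of complex I spread more widely. Ndufc1, a small subunit of the membrane arm, was the lowest of the complex with 10.9, 11.9 and 12.3 CPM in WT and 10.7, 8.80 and 9.10 CPM in the libraries labelled ISM1-/-. The lowest WT library stood only just above the highest of the others, and the log2 fold change was -0.30 (standard error 0.105, edgeR adjusted p = 0.192). Ndufb3, also of the membrane arm, was the highest with 29.3, 31.1 and 32.2 CPM against 29.5, 30.4 and 38.1 CPM, a log2 fold change of 0.08 whose 95% interval ran from -0.14 to 0.30. The third library labelled ISM1-/- alone lay above the WT range there. Ndufa7, the complex I member with the highest FPKM (fragments scaled by gene length and library total), was at 98.9% of its WT mean. Chosen after their values were seen, Ndufa12, Ndufa1, Ndufv3 and Ndufc2 also had an unadjusted p under 0.05 in edgeR, with means at 85.1%, 88.0%, 88.8% and 88.8% of WT and no overlap of the groups, and none passed the adjusted threshold.

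Ndufa4 and Ndufa4l2 carry complex I symbols but are now assigned to complex IV. Ndufa4, the common form, had 71.5, 71.2 and 76.8 CPM in WT and 66.2, 65.6 and 59.7 CPM in the libraries labelled ISM1-/-, without overlap. Its log2 fold change was -0.20 (standard error 0.0652, edgeR adjusted p = 0.166). Ndufa4l2, a paralogue known to be induced by hypoxia, had 28.1, 27.0 and 24.9 CPM against 28.3, 30.3 and 23.7 CPM and overlapped (log2 fold change 0.04, 95% interval -0.17 to 0.25). The share of Ndufa4l2 in the FPKM of the pair was 23.2% ± 1.78 (SD, n = 3) in WT and 26.1% ± 1.48 (SD, n = 3) in the other group, with a two-sided exact permutation p of 0.1, the smallest that 3 against 3 libraries allow, and 0.267 after adjustment over the 8 isoform shares compared.

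Complex II, succinate dehydrogenase, joins the tricarboxylic acid cycle to the chain. All 4 subunits were below 0, with a median log2 fold change of -0.10, and 0 were called. Sdha, the flavoprotein that holds the active site, had 231.6, 214.6 and 219.9 CPM in WT and 209.0, 211.9 and 220.8 CPM in the libraries labelled ISM1-/-, and the groups overlapped. Sdhb, the iron-sulfur subunit whose promoter holds the NRF1 letters, had 67.0, 61.3 and 64.5 CPM against 60.2, 61.2 and 55.2 CPM. The lowest WT library and the highest of the others nearly met, and the log2 fold change was -0.13 with a 95% interval of -0.27 to 0.02. The membrane anchors Sdhc and Sdhd, named to complete the complex, were at 92.0% and 94.7% of WT, without overlap in Sdhc only.

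Complex III, the cytochrome bc1 complex, had the lowest median of the 5 complexes, -0.13, with 7 of its 8 members below 0. The groups did not overlap in 3 of them and 0 were called. Uqcrc1, a large core protein facing the matrix, had 110.6, 103.9 and 108.6 CPM in WT and 103.0, 94.2 and 89.4 CPM in the libraries labelled ISM1-/-, all lower than WT (log2 fold change -0.17, standard error 0.0656, edgeR adjusted p = 0.226). Uqcr10, a small membrane subunit, was the lowest with 48.5, 51.0 and 48.9 CPM against 46.1, 42.7 and 42.3 CPM, a log2 fold change of -0.18 (standard error 0.0632, edgeR adjusted p = 0.193). Uqcrfs1, the Rieske iron-sulfur protein that hands electrons towards cytochrome c, had a log2 fold change of -0.12 with overlapping groups. Uqcrh, the hinge protein and the member of highest FPKM, was at 99.7% of WT, and Uqcrb was the highest at 102.4%.

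Complex IV, cytochrome c oxidase, reduces oxygen to water at the end of the chain. Of 14 members tested, 10 were below 0 with a median of -0.07, 4 were separated between the groups and lower, and 0 were called. Cox4i1, a regulatory subunit and the most abundant of the complex, had 194.6, 190.9 and 199.0 CPM in WT and 185.2, 186.5 and 186.9 CPM in the libraries labelled ISM1-/-. The groups did not overlap, yet the log2 fold change was only -0.07 (95% interval -0.18 to 0.05). Cox5a, its neighbour on the matrix side, had 42.4, 39.7 and 41.6 CPM against 36.1, 36.6 and 39.0 CPM, a log2 fold change of -0.15 with a 95% interval of -0.29 to -0.004 (edgeR adjusted p = 0.30). Cox6c was the highest of the complex at 103.9% of WT, with 135.3 CPM in the third library labelled ISM1-/- beside 109.2 and 111.5 CPM in the other two, and overlapped WT.

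Cox6a2 showed the lowest log2 fold change of any member. It is the isoform of subunit VIa found in heart and skeletal muscle, and it lies on chr7:128205435-128206387, minus strand (GRCm38). The WT libraries held 899, 550 and 494 counts and the libraries labelled ISM1-/- 328, 417 and 374, or 23.8, 13.3 and 12.8 CPM against 7.71, 11.0 and 9.59 CPM. Every library labelled ISM1-/- was lower than every WT library, and WT replicate 1 was far above the other two. The log2 fold change was -0.82 with a standard error of 0.230, a 95% interval of -1.33 to -0.30 and an edgeR adjusted p of 0.107. Without WT replicate 1 it was -0.46 (edgeR adjusted p = 0.167). Without the low-count filter the adjusted p from edgeR was 4.41e-04, and by DESeq2, when the fit was limited to protein-coding genes averaging above 2 CPM, it was 0.00777, so whether Cox6a2 counts as called depends on the test and the genes entered.

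Markers of heart muscle followed the same order of groups. All 16 cardiomyocyte markers lay below 0, with a median log2 fold change of -1.01, 7 of them without overlap (12.3% of all genes separated lower), and 2 passed the test (3.34% of all genes were called lower): Csrp3 (edgeR adjusted p = 0.0937) and Myl7 (edgeR adjusted p = 0.0970). Myh6, the cardiac myosin heavy chain and the list's most abundant gene, had 26527 counts in WT replicate 1, 9624 and 10611 in the other WT libraries, and 5197, 6705 and 9905 in the libraries labelled ISM1-/-. WT replicate 1 was the highest and the first library labelled ISM1-/- the lowest of the 6 for both Cox6a2 and Myh6. In the third library labelled ISM1-/- the Myh6 count lay between those of the lower WT libraries, whereas Cox6a2 lay below all WT libraries. The part of heart muscle RNA in the value of Cox6a2 was not tested.

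**Figure D4:**
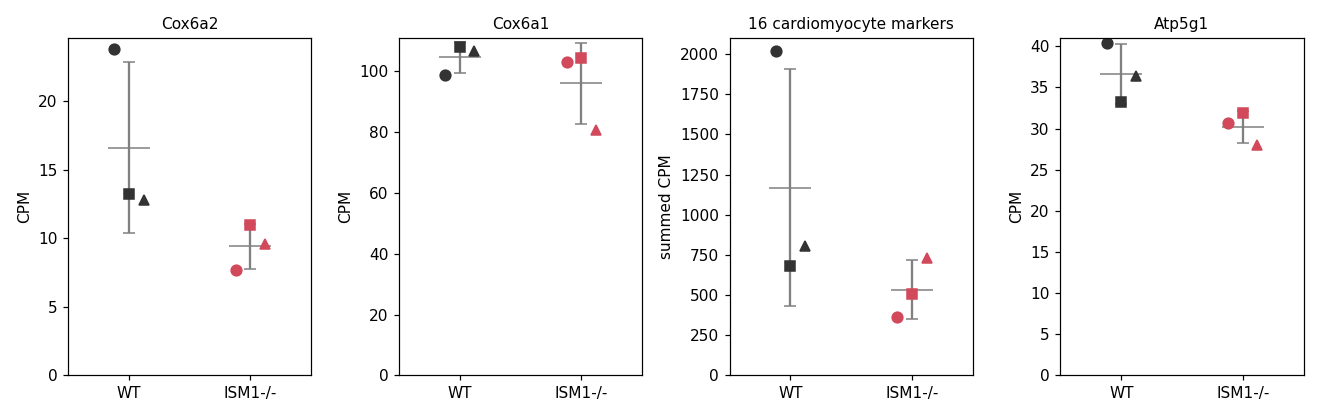
TMM-normalised CPM of Cox6a2, Cox6a1 and Atp5g1 and the summed CPM of 16 cardiomyocyte markers (vertical axes, from 0) in each library, with circles, squares and triangles for replicates 1, 2 and 3 and grey bars for the mean ± SD of 3 libraries. Cox6a2 and the markers are highest in WT replicate 1 (23.8 and 2018 CPM), whereas Cox6a1 ranges from 80.6 to 108.1 CPM with overlapping groups.

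Cox6a1, the widespread isoform of the same subunit, had 98.9, 108.1 and 106.8 CPM in WT and 103.2, 104.4 and 80.6 CPM in the libraries labelled ISM1-/-. The groups overlapped, and the log2 fold change of -0.12 (95% interval -0.33 to 0.09) rested on the third library of the latter group, without which it was -0.01. The share of Cox6a2 in the FPKM of both isoforms was 17.4%, 9.69% and 9.47% in WT and 6.14%, 8.44% and 9.42% in the libraries labelled ISM1-/-. The highest value of the latter almost met the lowest of the former (two-sided exact permutation p = 0.1, adjusted p = 0.267 over 8 shares). The isoforms can be told apart by sequence. Their coding sequences (GENCODE M21) are identical at 65.3% of 294 aligned bases, and the longest run shared by their transcripts is 12 bases, far under the read length of 150. The most alike ungapped stretch of 120 coding bases lets the isoforms be compared, with the 31 bases that differ in capitals, at coding positions 203 to 322 of Cox6a1 and 158 to 277 of Cox6a2.
Cox6a1: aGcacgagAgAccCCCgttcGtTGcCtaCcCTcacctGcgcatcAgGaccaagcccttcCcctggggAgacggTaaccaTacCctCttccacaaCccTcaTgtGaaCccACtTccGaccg
Cox6a2: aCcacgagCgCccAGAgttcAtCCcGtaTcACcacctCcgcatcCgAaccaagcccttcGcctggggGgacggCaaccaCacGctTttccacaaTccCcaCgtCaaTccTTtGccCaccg

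Other tissue isoforms of complex IV were also measured. Cox4i2, the lung isoform of subunit IV, had 43.8, 42.9 and 39.0 CPM in WT and 42.7, 45.4 and 38.8 CPM in the libraries labelled ISM1-/-, with a log2 fold change of 0.01 (95% interval -0.16 to 0.19). Its share of the FPKM of Cox4i1 and Cox4i2 was 15.1% ± 0.994 against 15.8% ± 1.07 (SD, n = 3 each, two-sided exact permutation p = 0.4). Cox6b2, known from testis, had 11.5, 10.6 and 11.3 CPM against 10.2, 9.54 and 10.1 CPM, at 89.3% of WT and without overlap. Its share of the pair with Cox6b1 was 10.8% ± 0.583 against 9.66% ± 0.358 (SD, n = 3 each, two-sided exact permutation p = 0.1, adjusted p = 0.267 over 8 shares), while Cox6b1 itself was at 101.4% of WT. Cox7a2l was at 101.7% and its partner Cox7a2 at 98.4%. Cox7b and Cox8a, whose testis forms Cox7b2 and Cox8c were not tested, were at 88.7% of WT each, with overlapping groups.

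The isoforms outside the rule, Cox7a1 and Cox8b, were both lower in mean. Cox8b had 182, 101 and 120 counts in WT and 69, 51 and 68 in the libraries labelled ISM1-/-. It was called lower (log2 fold change -1.13, standard error 0.258, edgeR adjusted p = 0.0538). Cox7a1 had 260, 115 and 177 counts against 106, 106 and 143, and the groups overlapped (log2 fold change -0.67, edgeR adjusted p = 0.306). As with Cox6a2, the highest library of both was WT replicate 1. Ucp1, the defining gene of brown adipocytes, had 232 counts in that library, 2 and 24 in the other WT libraries and 3 to 5 in the libraries labelled ISM1-/-. Its groups overlapped (edgeR adjusted p = 0.139). All 7 brown adipocyte markers tested, Cox7a1 and Cox8b among them, were below 0, and 1 was called, Cox8b (3.34% of all genes were called lower). The list's most abundant gene, Prdm16, had mean levels of 50.4 CPM in WT and 48.2 CPM in the other group, with overlap (log2 fold change -0.07). Ppargc1a (-0.10) and Dio2 (-0.08) overlapped as well. The part of brown fat in these values was not tested.

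Complex V, the ATP synthase, had 16 of 17 tested members below 0 with a median log2 fold change of -0.10. The groups were separated in 8 of them, always with the libraries labelled ISM1-/- lower, and 0 were called in edgeR. Atp5b, the catalytic beta subunit and the member with the highest FPKM of all complexes, had 518.4, 492.5 and 499.1 CPM in WT and 459.3, 474.9 and 452.7 CPM in the libraries labelled ISM1-/-. It stood at 91.9% of WT (log2 fold change -0.12, standard error 0.0544, 95% interval -0.24 to -0.001, edgeR adjusted p = 0.31). Atp5a1, the alpha subunit that alternates with it in the catalytic head, had 443.2, 410.9 and 413.4 CPM against 398.2, 388.1 and 385.0 CPM, again without overlap, at 92.4% of WT. Atp5c1, the central shaft that turns inside the head, was at 97.9% of WT and its groups overlapped. Atp5h, subunit d of the outer stalk, was the highest of the complex at 100.9%.

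Subunit c, which forms the rotating ring in the membrane, is encoded by Atp5g1, Atp5g2 and Atp5g3, whose mature proteins are the same and whose targeting leaders differ. Atp5g1 lies on chr11:96068852-96075670, minus strand, and had 40.4, 33.2 and 36.4 CPM in WT and 30.6, 31.8 and 28.01 CPM in the libraries labelled ISM1-/-. The groups did not overlap. The log2 fold change was -0.28 with a standard error of 0.0856 and an adjusted p of 0.134 in edgeR, and -0.28 with an adjusted p of 0.0792 in DESeq2. It was called by DESeq2, and by edgeR without the low-count filter (adjusted p = 0.0451). Atp5g2 was at 96.0% and Atp5g3 at 93.3% of WT, the latter without overlap. The share of Atp5g1 in the FPKM of the 3 genes was 5.99% ± 0.569 in WT and 5.25% ± 0.246 in the other group (SD, n = 3 each, two-sided exact permutation p = 0.2). In counts the share was 19.3% and 17.2%. The FPKM divide Atp5g1 by 2665 bases and Atp5g2 and Atp5g3 by 640 and 772, so the level of this share is uncertain. Chosen after its values were seen, Atp5k, subunit e at the place where ATP synthases pair, had 20.9, 22.1 and 22.1 CPM against 17.0, 19.5 and 18.5 CPM without overlap (edgeR log2 fold change -0.24, standard error 0.0758, adjusted p = 0.143).

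Across the complexes, the 15 subunits of the core list, which holds regulatory subunits such as Cox4i1 beside catalytic ones, were all below 0. Of all members tested, 87.5% were below 0. The median log2 fold change of the core list was -0.09. In 7 of the 15 the groups did not overlap, each time lower, beside 12.3% of all genes. The medians of the complexes ran from -0.13 to -0.07, beside a median standard error of 0.0697 for a single member, and no test between complexes was made. They moved with the setting. Without WT replicate 3 the median of complex V was -0.05 and that of complex IV -0.04, and with a correction for gene length the medians of complexes I, IV and V were -0.05, -0.03 and -0.07.

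Levels among the members spanned a wide range. Mean FPKM of the tested members over the 6 libraries ran from 7.58 for Ndufb2, named for this minimum, to 552 for Atp5b, with medians of 50.1 in complex I, 51.0 in complex II, 96.9 in complex III, 103 in complex IV and 99.3 in complex V. The deposited FPKM divide by 1 fixed length per gene, which equalled the gene length in the table in 22.3% of 17957 genes compared (within 1 base). For Sdha that length was 771 bases beside 4126 in the table, and for Atp5b 874 beside 4237, so levels per length are uncertain between genes, while ratios of one gene between libraries are not touched.

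**Figure D5:**
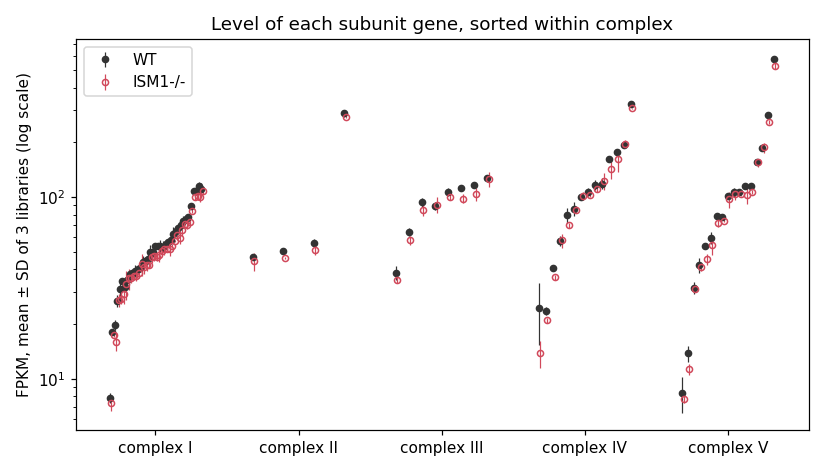
Mean FPKM ± SD of 3 libraries (vertical axis, log scale) of each subunit gene tested, sorted within its complex, in WT (filled) and ISM1-/- (open). The plotted means run from 7.305 FPKM (Ndufb2, ISM1-/-) to 577 FPKM (Atp5b, WT), and in most genes the open circle lies slightly below the filled one.

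Genes that build or feed the complexes are read beside the 4.72% of all genes called. Of 48 assembly factors tested, 37 were below 0 with a median log2 fold change of -0.07 and 0 were called. In the tricarboxylic acid cycle 19 of 20 were below 0 with a median of -0.09 and 0 called. Of 23 genes for electron carriers and coenzyme Q, 19 were below 0 with a median of -0.10, and 1 was called: Coq8b, a kinase-like protein of coenzyme Q synthesis, fell from 31.1 to 26.0 CPM in mean (log2 fold change -0.26, edgeR adjusted p = 0.0693). This list also holds Cyc1, a subunit of complex III, and Ndufab1, a subunit of complex I, whose symbols fall outside the rule. Cyc1 had a log2 fold change of -0.16 without overlap of the groups (edgeR adjusted p = 0.214), and Ndufab1 -0.12 with overlap. Among 77 mitochondrial ribosomal proteins 51 were below 0 with a median of -0.02, and 1 was called lower, Mrpl12. Exchange of ATP and phosphate gave 7 of 12 below 0, with a median of -0.07 and 0 called.

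The list of mitochondrial biogenesis regulators holds factors that act on nuclear genes and others that serve the mitochondrial genome or its transcripts. Of 20 tested, 7 were below 0 and the median was 0.02, a difference from the subunits that was not tested. Ppara, a nuclear receptor that turns on fatty acid oxidation, had 201, 206 and 189 counts in WT and 158, 105 and 139 in the libraries labelled ISM1-/- and was the 1 called (log2 fold change -0.59, standard error 0.148, edgeR adjusted p = 0.0732). Cytosolic ribosomal proteins had 27 of 81 below 0 and a median of 0.03, with 0 called. The 4 calls over these related lists and the isoforms outside the rule depended on single libraries: their number was 0 without WT replicate 3 or without the first or the second library labelled ISM1-/-, 1 without WT replicate 2, 2 without WT replicate 1 and 8 without the third library labelled ISM1-/-.

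Transcripts of the mitochondrial genome, which encode further subunits of complexes I, III, IV and V, varied more between libraries than the nuclear ones. Of 13 tested, 8 were below 0 with a median log2 fold change of -0.05 and 0 called. Their counts were very uneven, from 59 in a WT library for mt-Atp8 to 279026 for mt-Co1. The rows with most counts, mt-Nd1, mt-Nd2, mt-Nd4, mt-Nd5, mt-Cytb and mt-Co1, were all below 0 (-0.27 to -0.05, groups overlapping). Those above 0, mt-Nd3, mt-Nd6, mt-Co2, mt-Co3 and mt-Atp6, had at most 2518 counts in a library. Few counts were also held by mt-Nd4l and mt-Atp8, both below 0 (at most 325). Averaged as above, each gene with equal weight, the 13 stood at 0.211, -0.168 and -0.052 in WT and -0.092, 0.018 and 0.082 in the libraries labelled ISM1-/-. The groups overlapped. WT replicate 1 was again the highest.

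Limits of counting touch some members. The strand setting of the counting is not given in the sources used here, and 36 member rows overlap another gene row. In 16 of them the neighbour's mean count exceeded 10% of the member's own, as for Cox6c and Atp5j. Rows of pseudogenes named after these families held 94 counts, or 0.00753% of the members' 1248087.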

How the data were processed

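RNA of perfused whole lungs from 3 WT and 3 ISM1-/- mice was measured, with 1 library per mouse and groups taken from the labels. The authors enriched poly-A RNA, made strand-specific libraries, aligned cleaned pairs of reads with STAR (GRCm38) and deposited raw, unscaled counts per gene. The authors also deposited FPKM, which scale counts by library total and a gene length. The counting program, annotation and strand setting are not given in the sources used here. Total counts of 37606133 to 42345042 per library set the precision, and chi-square comparisons showed more than sampling noise between any 2 libraries.

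The filter asked for 0.5 CPM or more in 1 library or more, which 18689 genes met. Counts were scaled by TMM and compared by the quasi-likelihood test of edgeR 4.0.16 in R 4.3.3, without covariates, with Benjamini-Hochberg adjustment over all genes tested. An adjusted p under 0.1 counted as called, with no fold minimum (882 genes, of which 106 at least 2-fold). CPM are TMM-normalised, and ± is the SD over 3 libraries. Isoform shares were compared by two-sided exact permutation tests. Coding sequences came from GENCODE M21 and promoters from RefSeq (GRCm38.p6). The fit was tested on simulated data. FPKM served for levels and shares only.

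Members and lists were chosen with earlier results of these data known. Named genes were Ism1, the member with the highest and the lowest log2 fold change and the highest FPKM in each complex, a list of 15 core subunits, tissue isoforms with their partners, called genes of each list, and leading markers. Alternatives were DESeq2 1.42.0, RLE size factors, 3 other expression filters, an adjusted p under 0.05, the replicate number as a block, a length correction, each library left out in turn and, added after seeing the data, a GC correction and DESeq2 limited to protein-coding genes averaging above 2 CPM. P-values measure the spread between these mice only. The values of 1 member are not reported here singly, though it enters the counts and medians.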

Additional observations from a re-analysis of the deposited data

How the results depend on the processing

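The number of members called was 0 under RLE size factors, the filters of 0.5 CPM in at least 3 libraries and of a mean above 2 CPM in protein-coding genes, an adjusted p under 0.05, the length correction and each library left out. It was 1 with DESeq2 (Atp5g1, complex V, log2 fold change -0.28), 2 without a low-count filter (Atp5g1 at -0.29 in complex V, 1, and Cox6a2 at -0.82 in complex IV, 1), 2 with DESeq2 on protein-coding genes (Atp5g1 at -0.27 and Cox6a2 at -0.81, 1 in each complex) and 1 with the GC correction (Cox5a at -0.18, complex IV). The median of the members moved to -0.0509 with the length correction (65 of 80 below 0), was -0.06 with the GC correction, and lay between -0.10 and -0.07 with each library left out. The cause of these differences was not tested.

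Over all genes, 882 were called, 1632 without a filter, 455 at an adjusted p under 0.05 and 150 to 1470 with one library left out (150 without WT replicate 2, 1470 without ISM1-/- replicate 3). Calls of at least 2-fold numbered 106, 293 without a filter, 29 on protein-coding genes with edgeR and 42 with DESeq2, 51 at 0.05, and 31 to 188 with one library left out. The 4 calls in the lists of related genes became 7 with DESeq2, 8 without a filter, 8 with DESeq2 on protein-coding genes, 0 at 0.05 and 0 to 8 with one library left out. Ism1 ranged from -0.26 to -0.15 with one library left out and passed without ISM1-/- replicate 3 (-0.26, edgeR adjusted p = 0.0356).

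Members near 0 changed sign. With the length correction Cox7a2 was 0.0121, Ndufa7 0.0176 and Uqcrh 0.0356. With the GC correction Atp5g2 was 0.0162 and Uqcrb -0.00979, and with DESeq2 on protein-coding genes Uqcrh was 0.00357. With one library left out, ranges that crossed 0 were -0.109 to 0.0146 for Atp5g2, -0.0483 to 0.0527 for Atp5h, -0.0396 to 0.0734 for Cox4i2, -0.0269 to 0.0597 for Cox6b1, -0.0486 to 0.114 for Cox6c, -0.066 to 0.0472 for Cox7a2, -0.0105 to 0.0511 for Cox7a2l, -0.0356 to 0.137 for Ndufa4l2, -0.0863 to 0.024 for Ndufa7, -0.0423 to 0.153 for Ndufb3, -0.104 to 0.0139 for Ndufs1, -0.0594 to 0.0897 for Uqcrb and -0.0907 to 0.0556 for Uqcrh. The 521 other values of named members kept their direction and their side of the threshold.

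The labels do not say whether the replicate numbers pair the mice. Deviations of libraries that share a number correlated at -0.003, 0.006 and 0.152. Those of libraries with unlike numbers correlated at -0.111 to 0.117. These correlations cannot settle whether mice were paired. With the replicate number as a block, 0 members were called and their median was -0.08, with 70 of 80 below 0.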
